A study of Sus scrofa with 22 samples.

Results

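The Toll-like receptors TLR1, TLR2, TLR4 and TLR8, together with LY96, were followed in the mononuclear cells of mini pig blood. These are the cells that stay above red cells and granulocytes on a density gradient, mainly lymphocytes and monocytes. Members were all probe sets of the Affymetrix porcine array annotated to exactly 1 of the 5 symbols, which gave 10 probe sets. They stand for 5 of the 6765 genes that the array names with 1 symbol. No measured value was used to choose them, although results of these data were known when the genes were proposed.

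There were 22 arrays from 20 pigs. At time 0, the start of the feeding, blood was taken from 5 females (pigs 6, 8, 10, 17 and 20) and 5 males (11, 12, 15, 24 and 25). At 9 months each of 3 diets was represented by 2 females and 2 males. The control chow held 5% beef tallow (females 8 and 18, males 16 and 25), and the high-fat chow held 20% (females 27 and 30, males 23 and 26). The last group ate the 20% tallow chow with resveratrol, a plant polyphenol, at a daily 8 mg per kg of body weight (females 21 and 22, males 4 and 5). Only pigs 8 and 25 were measured at both times, so the other pigs of the time comparison are different animals. The study asked whether resveratrol modifies gene expression in the blood cells of pigs of both sexes on a high-fat diet.

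Toll-like receptors are pattern recognition receptors of the innate immune system. TLR2 sits at the cell surface and recognises bacterial lipoproteins in a pair with TLR1 or TLR6. TLR4 recognises lipopolysaccharide, but only when LY96 (also called MD-2), a small secreted protein, is bound to its ectodomain, and CD14 hands the lipopolysaccharide over. TLR8 sits in endosomes and senses single-stranded RNA. All of them signal through TIR-domain adaptors such as MYD88 to NF-kB and interferon regulatory factors, and in blood they are best known from monocytes and other myeloid cells.

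Values are log2 RMA intensities, which are relative within a probe set and are not compared between genes. Only the 17240 of 23999 probe sets (71.8%) with a log2 value above 5 in 2 or more arrays were tested. Of the 10 member probe sets, 8 passed. Those not tested were Ssc_19704_1_S1_at of TLR1, which lay between 3.02 and 3.96, and Ssc_28998_1_A1_at of TLR4, which lay between 4.25 and 4.83. Where a gene had several probe sets, the brightest over all arrays stands for it: Ssc_19704_1_A1_at for TLR1 and Ssc_12781_1_A2_at for TLR4. TLR2, TLR8 and LY96 had a single probe set each (Ssc_17337_1_S1_at, Ssc_17224_1_S1_at and Ssc_25550_1_S1_at). In the Sscrofa11.1 gene table TLR1 lies between TLR10 and TLR6 and carries TLR6 as a synonym, and TLR8 lies next to TLR7 and carries TLR7 as a synonym, so signal assigned to either could include that of its related neighbour.

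The markers of a mononuclear fraction were measured. The 14 monocyte and 10 T cell markers on the array all passed the filter, as did 2 of 2 B cell and 5 of 5 NK cell markers. Of cells that could be carried over, 6 of 7 granulocyte, 6 of 6 platelet and 3 of 3 erythroid markers passed the filter. Among the granulocyte markers S100A9 had a mean of 8.60 over all arrays, and the other 5 had means of 4.96 to 6.19, near the filter or under it. The mean over the 14 monocyte markers ranged from 9.80 to 10.39 at time 0 and from 9.73 to 10.46 at 9 months. At each time the arrays were split in 2 at the largest gap in their mean poly-A spike-in signal. This gave 4 sets, named A to D here, whose origin the labels do not give. At time 0, set A held females 6 and 10 and set B the other 8 arrays. At 9 months, set D held females 27, 30 and 21 and males 26 and 25, and set C the other 7. Because the sets were cut within each time, none can span both, and time and set cannot be told apart. By log2 spike-in signal alone, set A (8.28 to 8.32) lay just above set C (7.67 to 8.21) and farther from set B (6.96 to 7.20). In bulk cells, a lower level from fewer cells of a type and one from less RNA per cell cannot be told apart.

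**Figure D1:**
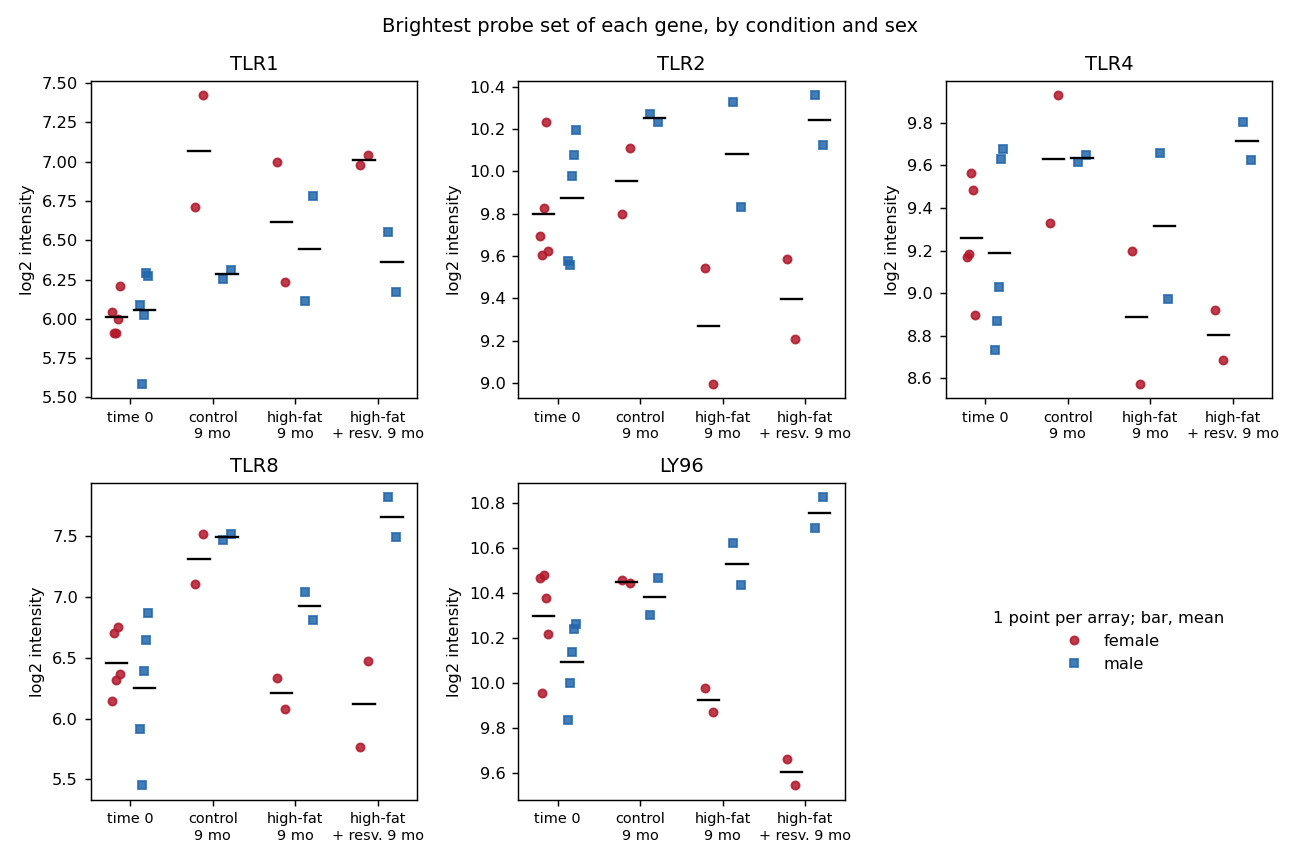
Log2 intensity of the brightest probe set of each gene (vertical axes, 1 scale per gene) in the 4 conditions; circles are females, squares are males, 1 point per array, and bars are the means of condition and sex. On the high-fat and resveratrol diets both females lie below both males for LY96 and TLR8, while on the control diet the sexes overlap.

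Levels of TLR2, the lipoprotein receptor, were 9.60 to 10.23 in the time 0 females (median 9.70) and 9.56 to 10.19 in the time 0 males (median 9.98). At 9 months the control females gave 9.80 (female 18) and 10.11 (female 8) and the control males 10.27 and 10.23. On the high-fat diet females 27 and 30 gave 9.54 and 9.00, and males 23 and 26 gave 10.33 and 9.83. The female values on that diet included the lowest of all 22 arrays. With resveratrol, females 21 and 22 gave 9.58 and 9.21 and males 4 and 5 gave 10.36 and 10.13. By condition the means were 9.84 ± 0.26 (SD, n = 10) at time 0, 10.10 ± 0.21 (SD, n = 4) on control, 9.67 ± 0.56 (SD, n = 4) on high-fat and 9.82 ± 0.52 (SD, n = 4) with resveratrol, so every neighbouring pair in that order overlapped.

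TLR1, a partner of TLR2, lay at 5.91 to 6.21 in the time 0 females (median 6.00) and at 5.59 to 6.29 in the time 0 males (median 6.09). The control females at 9 months gave 6.71 and 7.42, both above every time 0 value, and the control males 6.26 and 6.31. On high-fat, females 27 and 30 gave 6.998 and 6.24 and males 23 and 26 gave 6.11 and 6.78. With resveratrol the females gave 6.98 and 7.04 and the males 6.55 and 6.17. The diet means lay within their spread of each other, at 6.67 ± 0.54 on control, 6.53 ± 0.43 on high-fat and 6.69 ± 0.41 with resveratrol (SD, n = 4 each), against 6.03 ± 0.21 (SD, n = 10) at time 0.

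TLR4, the lipopolysaccharide receptor, lay at 8.90 to 9.56 in the time 0 females (median 9.18) and 8.73 to 9.68 in the time 0 males (median 9.03). On control at 9 months the females gave 9.33 and 9.93 and the males 9.62 and 9.65. On high-fat, females 27 and 30 gave 9.20 and 8.57 and males 23 and 26 gave 9.66 and 8.97. With resveratrol the females (8.92 and 8.68) lay below both males (9.81 and 9.62). The mean at time 0 was 9.22 ± 0.35 (SD, n = 10). At 9 months it was 9.63 ± 0.25 for control, 9.10 ± 0.45 for high-fat and 9.26 ± 0.54 for resveratrol pigs (SD, n = 4 each). The 4 tested TLR4 probe sets moved together over the arrays after the condition means were subtracted (r 0.85 to 0.96 over 22 arrays). The untested TLR4 probe set did not follow them (r 0.05 to 0.34). By the same measure the tested and untested TLR1 probe sets had r = 0.26, so the TLR1 results rest on 1 probe set.

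**Figure D2:**
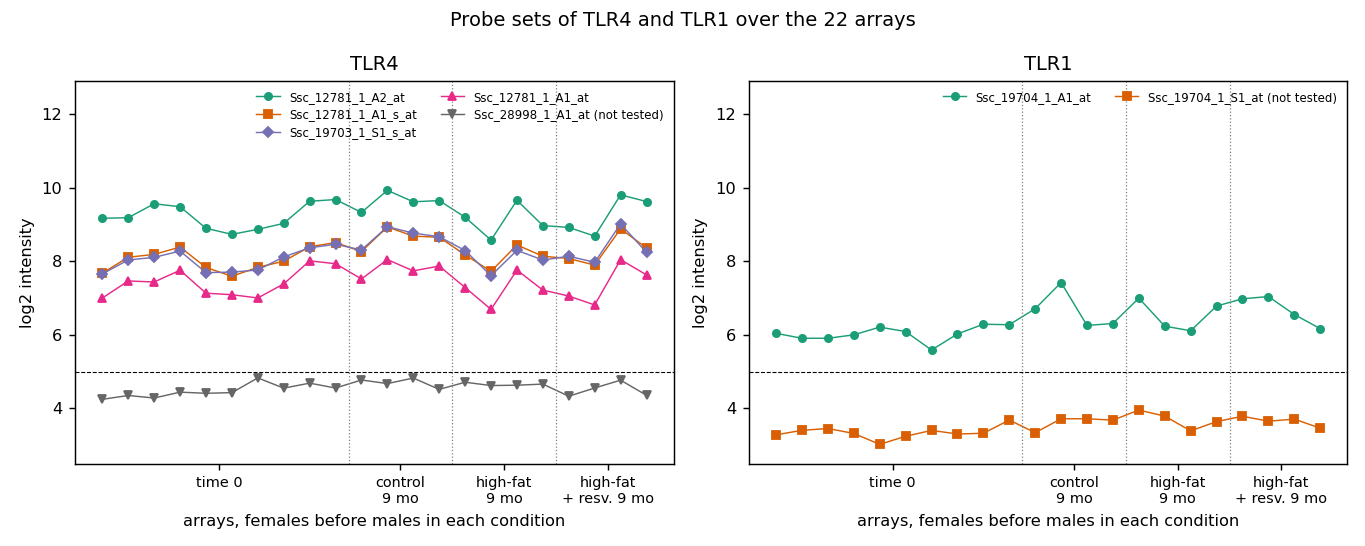
Log2 intensity (vertical axis) of the 5 TLR4 and 2 TLR1 probe sets over the 22 arrays, ordered by condition with females before males; the dashed line is the filter at 5 and dotted lines part the conditions. The 4 tested TLR4 probe sets run in parallel, and the untested probe set of either gene stays under the line in every array.

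LY96, the co-receptor that TLR4 needs for lipopolysaccharide, gave 9.96 to 10.48 in the time 0 females (median 10.38) and 9.84 to 10.26 in the time 0 males (median 10.14). The 4 control arrays at 9 months lay within a narrow band: 10.46 and 10.44 in females, 10.30 and 10.47 in males. On high-fat the females gave 9.98 and 9.87 and the males 10.62 and 10.44. With resveratrol the females gave 9.66 and 9.54, the lowest of all 22 arrays, and the males 10.69 and 10.83, the highest. The condition means hid this split, at 10.20 ± 0.22 (SD, n = 10), 10.42 ± 0.08, 10.23 ± 0.36 and 10.18 ± 0.67 (SD, n = 4 each) for time 0, control, high-fat and resveratrol.

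TLR8, the endosomal RNA sensor, ranged from 6.14 to 6.75 in the time 0 females (median 6.37) and from 5.45 to 6.87 in the time 0 males (median 6.39). All 4 control arrays at 9 months were above every time 0 array: 7.11 and 7.52 in females, 7.47 and 7.51 in males. Those of the other diets were spread wider. On high-fat the females gave 6.33 and 6.08 and the males 7.04 and 6.81. With resveratrol the females gave 5.77 and 6.47 and the males 7.82 and 7.50. The mean was 6.35 ± 0.43 (SD, n = 10) at time 0, 7.40 ± 0.20 on control, 6.57 ± 0.44 on high-fat and 6.89 ± 0.94 with resveratrol (SD, n = 4 each).

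All 8 tested probe sets had lower means on the high-fat diet, but none passed the test (limma, two-sided, Benjamini-Hochberg over all 17240 probe sets, threshold 0.05). Over the whole array 0% passed in this comparison. The largest difference was that of TLR8, -0.83 (SE 0.33, 95% interval -1.52 to -0.15, adjusted p = 0.433). The TLR4 probe sets differed by -0.51 to -0.61 (adjusted p 0.366 to 0.542), TLR2 by -0.43 (SE 0.21, adjusted p = 0.554), LY96 by -0.19 (SE 0.22) and TLR1 by -0.14 (SE 0.22), where the sign of TLR1 turned without control female 8 (0.075) or high-fat female 30 (0.012). At an unadjusted p under 0.05, TLR8 and all 4 TLR4 probe sets were lower, 5 of 8 members, against 5.17% of all probe sets. The TLR4 probe sets measure a single gene and are not separate evidence. The median over the members was -0.52, beside -0.00453 over all probe sets.

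The same comparison was then made within each sex. In females 0 of 8 passed (0.0232% of all probe sets did), while 7 of 8 were lower at an unadjusted p under 0.05, against 4.02% of all. TLR8 was -1.11 (SE 0.35), TLR2 -0.68 (SE 0.25) and LY96 -0.53 (SE 0.16), and TLR1 was the exception at -0.45 (SE 0.27). The lower ones included every tested TLR4 probe set, which stand for a single gene. Among females diet coincided with spike-in set, since control arrays fell only in set C and high-fat arrays only in set D. A diet effect and a set effect therefore cannot be told apart within this sex. In males 0 of 8 passed either way (0.0290% of all with adjustment and 18.1% without), with TLR8 at -0.56 (SE 0.35) and LY96 at 0.15 (SE 0.16). The difference between the sexes in the high-fat effect was tested itself: 0 of 8 passed (0.00580% of all). Its female part carries the same mixing of diet and set. LY96 came nearest, with females 0.67 further down than males (-0.67, SE 0.23, unadjusted p = 0.00925, adjusted p = 0.397), and it was the single member lower at an unadjusted p under 0.05, against 6.58% of all.

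Monocyte markers lay lower on high-fat together with these genes. Of 14 tested, 12 had negative differences (median -0.35) and 0 passed. The macrophage scavenger receptor CD163 was -0.90 (adjusted p = 0.369), CD14 -0.76 (adjusted p = 0.352) and the myeloid transcription factor SPI1 -0.68 (adjusted p = 0.326). The mean of the 14 was 10.25 ± 0.17 on control (10.06 to 10.46) and 9.90 ± 0.15 on high-fat (9.78 to 10.10; SD, n = 4 each). Other lists lay to one side too, with 0 passed. Differences were positive for 8 of 10 T cell (median 0.09), 5 of 5 NK (0.22), 5 of 6 platelet (0.48) and 3 of 3 erythroid markers (0.51). They were negative for 4 of 6 granulocyte (-0.14) and 1 of 2 B cell markers (-0.10). The 3' minus 5' signal of actin, a sign of RNA length, was 1.95 ± 0.65 on control and 2.36 ± 0.56 on high-fat (SD, n = 4 each). The part of these cells and of the actin signal in the high-fat differences was not tested. The spike-in sets were also unevenly spread, with 3 of 4 control arrays in set C and 3 of 4 high-fat arrays in set D. In females this split was complete. With set as a term in the fit TLR8 was -0.54 (SE 0.35), TLR2 -0.31 (SE 0.23) and LY96 -0.03 (SE 0.21).

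**Figure D3:**
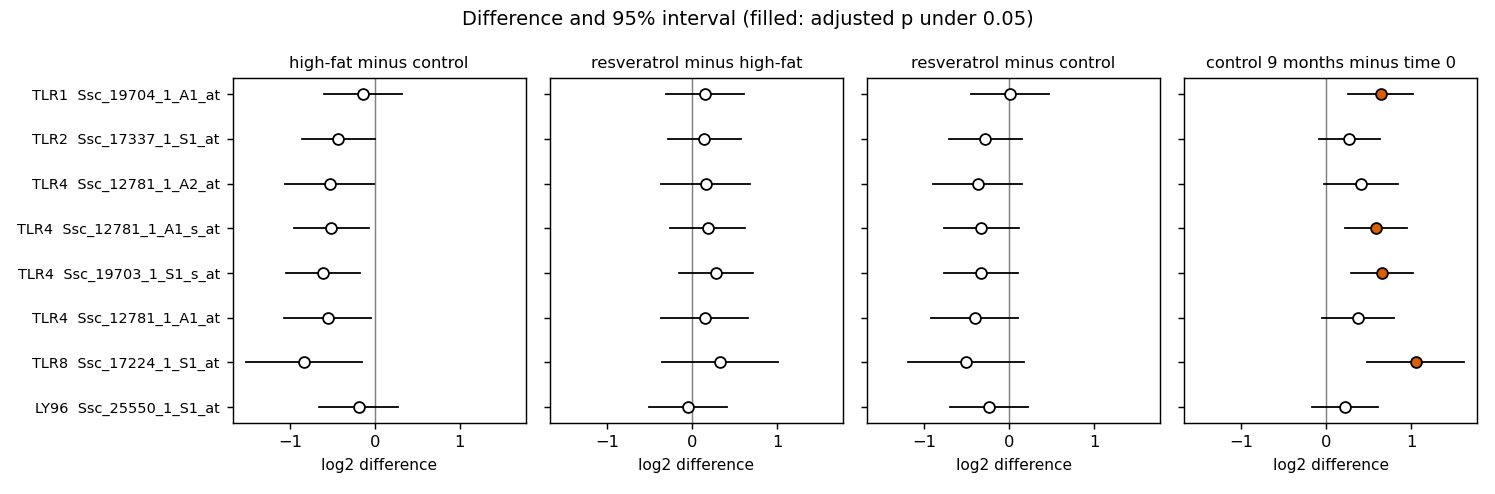
Log2 difference (horizontal axis) with its 95% interval for the 8 tested probe sets in the 3 diet comparisons and for control at 9 months minus time 0; filled points passed at an adjusted p under 0.05. No diet comparison has a filled point, and 4 probe sets are filled for time.

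None of the 8 probe sets differed between the resveratrol and high-fat groups past the threshold, as over the whole array (0%), and none did at an unadjusted p under 0.05, against 6.63% of all. This comparison and the one above share the high-fat arrays. The differences were 0.32 for TLR8 (95% interval -0.36 to 1.01), 0.16 for TLR4 (-0.36 to 0.68), 0.15 for TLR1 (-0.30 to 0.61), 0.14 for TLR2 (-0.29 to 0.58) and -0.05 for LY96 (-0.51 to 0.42). These intervals leave room for changes in either direction. By sex, TLR8 was 0.73 in males (adjusted p = 0.707) and -0.09 in females (adjusted p = 0.974), and LY96 0.23 in males and -0.32 in females (SE 0.16 each). The members' median was 0.16 and that of all probe sets 0.016.

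Resveratrol pigs were also set against the control diet, sharing those control arrays. Again 0 of 8 passed (0% of all), and 0 of 8 had an unadjusted p under 0.05, against 3.85% of all. TLR8 was -0.51 (SE 0.33), TLR4 -0.37 (SE 0.25), TLR2 -0.28 (SE 0.21), LY96 -0.24 (SE 0.22) and TLR1 0.01 (SE 0.22). The spread within the resveratrol group was wide because its sexes lay apart. In females LY96 was -0.85 against the control females (SE 0.16, adjusted p = 0.0739), while in males it was 0.37 against the control males (SE 0.16, adjusted p = 0.428).

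The sex difference in the effect of adding resveratrol was tested as well. It passed for 0 of 8 members (0.0116% of all). LY96 was -0.55 (SE 0.23, unadjusted p = 0.0294, adjusted p = 0.842), the only member lower at an unadjusted p under 0.05, against 2.15% of all, and TLR8 was -0.82 (SE 0.49). Set directly against the control diet, a comparison added after the values were seen, the female minus male difference was 1.22 more negative with resveratrol for LY96 (-1.22, SE 0.23, adjusted p = 0.0764) and 1.36 more negative for TLR8 (-1.36, SE 0.49, adjusted p = 0.174). None passed there (0% of all), and these 2 of 8 were lower at an unadjusted p under 0.05, against 7.46% of all. Without control male 25 the LY96 value was -1.30, with male 16 left as the only control male.

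TLR8 and TLR1 rose over the 9 months of control feeding, and so did 2 of the 4 TLR4 probe sets. In all, 4 of 8 members were higher, where 15.8% of all probe sets were, and none was lower. TLR8 rose 2.07-fold (1.05 in log2, SE 0.27, adjusted p = 0.00573) and TLR1 1.56-fold (0.64, SE 0.18, adjusted p = 0.0103). For TLR4, Ssc_19703_1_S1_s_at rose by 0.65 (SE 0.18, adjusted p = 0.00685) and Ssc_12781_1_A1_s_at by 0.58 (SE 0.18, adjusted p = 0.0145). The brightest TLR4 probe set (0.41, adjusted p = 0.139) and Ssc_12781_1_A1_at (0.37, adjusted p = 0.166) did not pass, so the TLR4 probe sets gave one direction and different calls. TLR2 (0.27, SE 0.17) and LY96 (0.22, SE 0.19) did not pass either. With the mean of the 3 diets in place of control, the TLR8 difference was smaller, 0.60 (adjusted p = 0.0167), and that of TLR1 was 0.60 (adjusted p = 9.22e-04). In that fit 8547 of all 17240 probe sets passed in either direction.

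TLR8 passed in both sexes and TLR1 in females. By sex, TLR8 was 0.86 higher in females (SE 0.29, adjusted p = 0.0374) and 1.24 higher in males (SE 0.29, adjusted p = 0.00637). TLR1 was 1.05 higher in females (SE 0.23, adjusted p = 0.00286) and 0.23 higher in males (SE 0.23, adjusted p = 0.506), a difference between the sexes that was not tested. In females these were 2 of 8 members, against 11.6% of all probe sets, and in males TLR8 was 1 of 8, against 9.00%. Without control female 8 the TLR1 difference was 0.42 (adjusted p = 0.0865), and the members called were 2 instead of 4.

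Pigs 8 and 25, sampled at both times, can be read directly. In female 8, TLR8 went from 6.70 to 7.52 and TLR1 from 5.91 to 7.42, the largest single step of any member. In male 25, TLR8 went from 6.87 to 7.51 and TLR1 from 6.28 to 6.31. TLR4 went from 9.18 to 9.93 in female 8 and from 9.68 to 9.65 in male 25. So TLR8 was higher at 9 months in both pigs, while TLR1 and TLR4 were higher in female 8 and differed by 0.03 and -0.03 in male 25.

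Cell markers differed over the same months. Of the 14 monocyte markers 2 rose (CD163 by 1.07 and FCER1G by 0.49) and none fell. Of 10 T cell markers 6 fell, among them CD3G by 0.88 and CD8A by 0.85, and none rose. Over all probe sets 15.8% rose and 19.1% fell, so the monocyte count is near the share of the whole array. Of the other lists, 1 of 2 B cell markers fell (CD79B by 0.70), 2 of 5 NK markers fell (GNLY by 0.84 and GZMH by 0.55) and FASLG rose (0.54), and all 3 erythroid markers fell. No granulocyte marker (0 of 6) and no platelet marker (0 of 6) passed. The actin 3' minus 5' signal was 1.42 ± 0.50 (SD, n = 10) at time 0, lower than on control at 9 months. The part of any of these in the TLR8 and TLR1 rise was not tested. Female 8 on control also stood apart in its platelet markers, with a mean of 6.07 against 8.94 to 9.42 in the other control arrays.

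At time 0 the sexes did not differ past the threshold in any of the 8 member probe sets, where 1.07% of all passed. None had an unadjusted p under 0.05 either, against 16.4% of all. Female minus male differences were 0.21 for LY96 (95% interval -0.01 to 0.42), 0.20 for TLR8 (-0.26 to 0.66), 0.07 for TLR4 (-0.35 to 0.50), -0.04 for TLR1 (-0.40 to 0.32) and -0.08 for TLR2 (-0.41 to 0.25). The LY96 value leaned on females 6 and 10, the spike-in set A, which gave 10.47 and 10.48. Without them it was 0.09 (SE 0.11). Of the monocyte markers 1 of 14 was higher in females at time 0 (AIF1, 0.53) and of the T cell markers 1 of 10 was lower (IL7R, -0.42), with none called in the other 5 marker lists.

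At 9 months, with the 3 diets averaged, females had less LY96, TLR2 and TLR8 than males: 3 of 8 members were lower, where 2.94% of all probe sets were. LY96 was 1.48-fold lower (-0.57 in log2, SE 0.09, adjusted p = 0.00349), TLR2 1.57-fold lower (-0.65, SE 0.15, adjusted p = 0.0155) and TLR8 1.75-fold lower (-0.81, SE 0.20, adjusted p = 0.0242). The 4 TLR4 probe sets were -0.29 to -0.47 and did not pass (adjusted p 0.147 to 0.354). TLR1 went the other way, at 0.53 (SE 0.16, adjusted p = 0.0529), just outside the threshold. At an unadjusted p under 0.05, 5 members were lower in females, against 9.62% of all, and 1 higher, against 12.2%.

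For LY96 the 6 females lay at 9.54 to 10.46 (median 9.92) and the 6 males at 10.30 to 10.83 (median 10.54). For TLR2 the females lay at 9.00 to 10.11 (median 9.56) and the males at 9.83 to 10.36 (median 10.25). For TLR8 they lay at 5.77 to 7.52 (median 6.40) and 6.81 to 7.82 (median 7.48). The sexes overlapped for each gene, and the overlap came from the control females: on the high-fat and resveratrol diets each female lay below both males of its diet for these 3 genes.

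By diet, the female minus male difference in LY96 was 0.07 on control (SE 0.16), -0.61 on high-fat (adjusted p = 0.268) and -1.16 with resveratrol (adjusted p = 9.74e-04). TLR8 was -0.18 on control (SE 0.35), -0.72 on high-fat (adjusted p = 0.458) and -1.54 with resveratrol (adjusted p = 0.0119). TLR2 was -0.30 on control (SE 0.25), -0.81 on high-fat (adjusted p = 0.305) and -0.85 with resveratrol (adjusted p = 0.0411). So 3 of 8 members were lower in females with resveratrol, where 3.90% of all probe sets were, and 0 of 8 passed on control or on high-fat, where 0.0928% of all did in each. At an unadjusted p under 0.05, TLR1 was higher on control, 1 of 8 against 4.43% of all, and TLR2 and LY96 were lower on high-fat, 2 of 8 against 6.08%. TLR1 was 0.78 on control, 0.17 on high-fat and 0.65 with resveratrol (SE 0.27 each), and did not pass in any diet. That the difference passed with resveratrol and not on control is no test between the diets, which is given above and was not past the threshold.

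**Figure D4:**
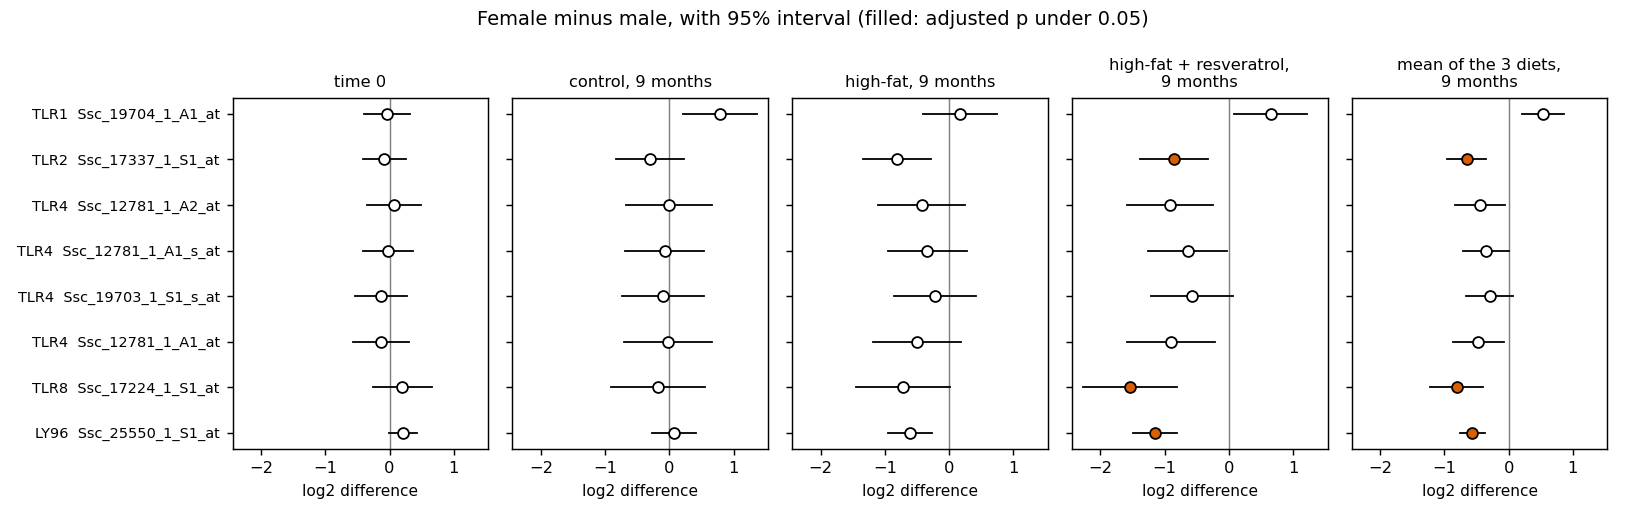
Female minus male log2 difference (horizontal axis) with its 95% interval for the 8 tested probe sets at time 0, on each diet at 9 months and as the mean of the 3 diets; filled points passed at an adjusted p under 0.05. LY96 goes from 0.21 at time 0 to -1.16 on the resveratrol diet, and TLR1 lies right of 0 in all 9-month panels.

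Whether the sex difference itself changed between the times was tested in a comparison added after the values were seen. LY96 and TLR8 passed, 2 of 8 members, where 3.89% of all probe sets were lower. For LY96 the female minus male difference was 0.77 lower at 9 months (-0.77, SE 0.14, adjusted p = 0.00581). For TLR8 it was 1.01 lower (-1.01, SE 0.30, adjusted p = 0.0455), close to the threshold, and that call was kept in 9 of 29 alternatives (adjusted p 0.0221 to 0.0929), where LY96 kept its own in all 29 (adjusted p 0.00416 to 0.0268). TLR2 (-0.57, adjusted p = 0.115) and TLR1 (0.57, adjusted p = 0.145) did not pass.

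The LY96 call at 9 months held in all 19 alternatives run, each array left out in turn among them (adjusted p 0.00312 to 0.0178). TLR8 lost its call without control male 25, high-fat female 30, high-fat male 23, or resveratrol female 21 or male 4 (adjusted p 0.0608 to 0.0842), and TLR2 lost it without high-fat male 23 (adjusted p = 0.0667). TLR1 gained a call, as higher in females, in 4 of 19 alternatives. These were the stricter filter (adjusted p = 0.0453) and leaving out control female 18 (0.0203), high-fat female 30 (0.0281) or high-fat male 26 (0.0222). Within spike-in set C, the 3 females averaged 10.15 and the 4 males 10.61 for LY96, and within set D the 3 females averaged 9.84 and the 2 males 10.45. The same means were 9.71 against 10.27 and 9.37 against 10.03 for TLR2, and 7.03 against 7.46 and 6.06 against 7.16 for TLR8. So females had the lower mean within both sets, but the diets were not balanced between the sexes there. Set D held 1 control male and no control female, and set C held 1 high-fat male and no high-fat female. Sex and diet are therefore partly mixed in these means.

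Markers of several cell types differed between the sexes at 9 months as well. Of 14 monocyte markers 13 had negative differences and 5 passed as lower in females, among them AIF1 (-0.61), TYROBP (-0.70) and FCER1G (-0.53), which encode a macrophage calcium-binding protein and a pair of signalling adaptors. Their mean ranged from 9.73 to 10.30 in females and from 9.94 to 10.46 in males. Among 6 granulocyte markers the calcium-binding S100A9 (-1.25) and S100A12 (-0.71, a probe set near the filter) were lower, among 10 T cell markers CD3E was higher (0.54), and among 2 B cell markers CD79B was higher (0.97). Of 3 erythroid markers 2 were lower (AHSP -2.19 and ALAS2 -1.66), and no NK (0 of 5) or platelet (0 of 6) marker passed. Over all probe sets 2.94% were lower in females and 3.07% higher. On the resveratrol diet alone, 7 of 14 monocyte, 2 of 6 granulocyte and 1 of 3 erythroid markers were lower in females. On that diet 4 of 10 T cell and 1 of 2 B cell markers were higher, and no NK or platelet marker passed. Over all probe sets 3.90% were lower there and 6.08% higher. On the control and high-fat diets no marker of any of the 7 lists passed.

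The actin 3' minus 5' signal also lay apart between the sexes on the high-fat and resveratrol diets. Between diets its mean was higher on high-fat (2.36) than on control (1.95), where the members had lower means on high-fat. On high-fat it was 1.93 and 1.92 in females 27 and 30 and 3.09 and 2.503 in males 23 and 26. With resveratrol it was 1.38 and 1.29 in females 21 and 22 and 2.04 and 2.72 in males 4 and 5. On control the sexes overlapped, with 1.94 and 2.52 in females 18 and 8 and 1.05 and 2.30 in males 16 and 25. So on high-fat and with resveratrol both females lay below both males, as they did for LY96, TLR2 and TLR8. For TLR2 both females also lay below both males on control, where the actin signal overlapped. The part of these cells and of the actin signal in the sex difference of the 3 genes was not tested.

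Over the 12 arrays of 9 months, which come from 12 pigs, the members other than TLR1 rose and fell with the mean of the 14 monocyte markers, none of which is a member. The permutation p-values are two-sided and adjusted over 10 relations. Orders were drawn over all arrays of a time without regard to diet or sex, so shared group means enter these p-values. The share of all probe sets with such a relation was not computed. TLR8 followed it most closely (r = 0.89, adjusted permutation p = 0.0018; rho = 0.80, adjusted permutation p = 0.0271). It had r = 0.83 among the 6 females and among the 6 males, and 0.88 without the 2 arrays farthest from the median. LY96 had r = 0.79 (adjusted permutation p = 0.0098; rho = 0.73, adjusted permutation p = 0.0283), with r = 0.84 in the 6 females and 0.15 in the 6 males, a difference that was not tested. TLR2 had r = 0.78 (adjusted permutation p = 0.0098; rho = 0.77, adjusted permutation p = 0.0271), with 0.62 in females and 0.60 in males. TLR4 had r = 0.75 (adjusted permutation p = 0.0163; rho = 0.64, adjusted permutation p = 0.0592), with 0.60 and 0.72. TLR1 had r = -0.47 (adjusted permutation p = 0.149; rho = -0.46, adjusted permutation p = 0.164).

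Without the 2 farthest arrays r was 0.84 for LY96, 0.78 for TLR2, 0.73 for TLR4 and -0.34 for TLR1. Within the 7 arrays of set C it was 0.74 for TLR8, 0.68 for LY96, 0.67 for TLR2, 0.54 for TLR4 and -0.60 for TLR1, and set D held too few arrays. Over the 10 arrays of time 0, TLR8 was the only member whose r passed (r = 0.78, adjusted permutation p = 0.0163; rho = 0.77, adjusted permutation p = 0.0318), and r was 0.79 without the 2 farthest arrays. TLR2 (r = 0.65, rho = 0.65), TLR4 (r = 0.57, rho = 0.61), TLR1 (r = 0.38, rho = 0.26) and LY96 (r = 0.38, rho = 0.33) did not pass (adjusted permutation p of r 0.0744 to 0.280, of rho 0.0817 to 0.468). Without the 2 farthest arrays TLR2 had r = 0.35, TLR4 0.38, TLR1 0.75 and LY96 -0.09. Within the 8 arrays of set B, which leave out females 6 and 10, r was 0.83 for LY96, 0.77 for TLR8, 0.67 for TLR4, 0.63 for TLR2 and 0.39 for TLR1.

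**Figure D5:**
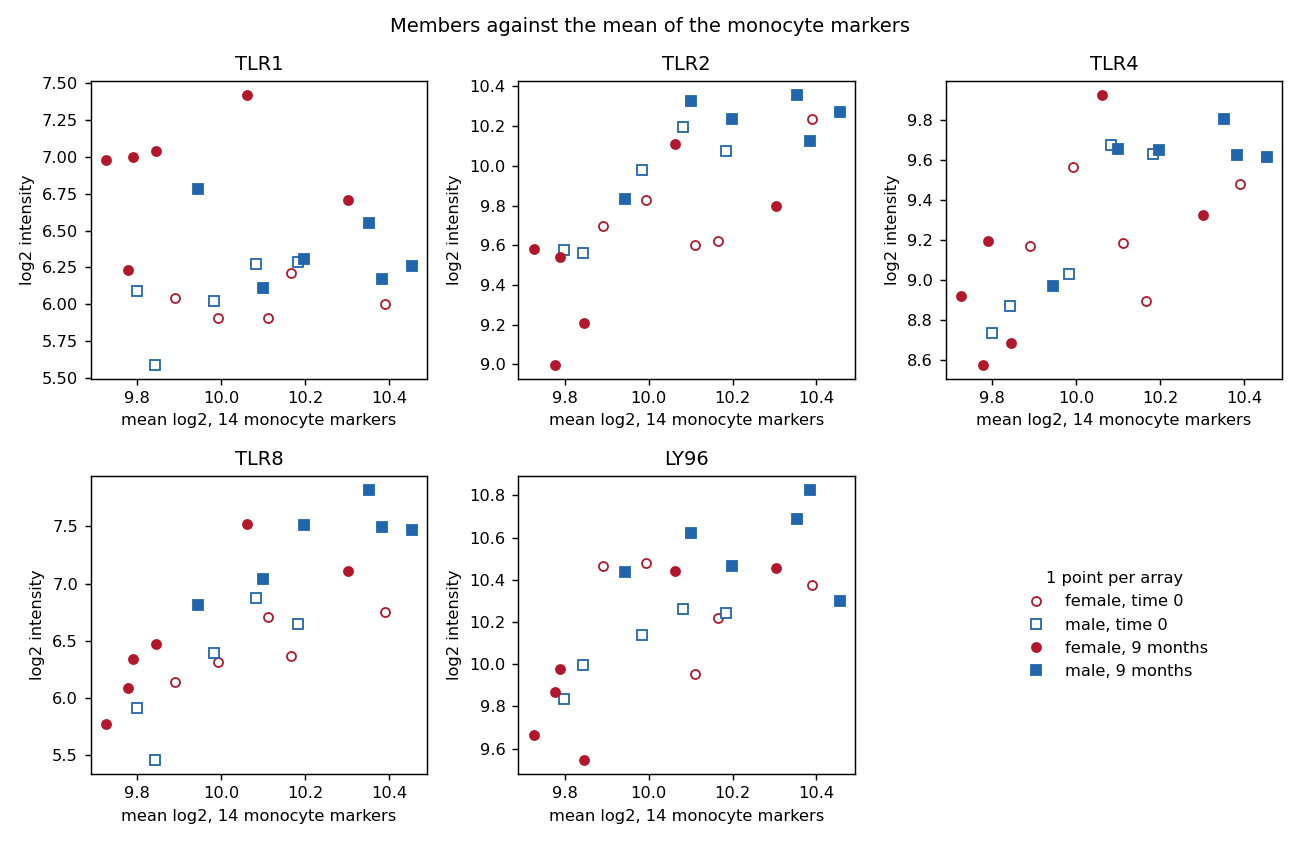
Log2 intensity of each gene's brightest probe set (vertical axes) against the mean log2 of 14 monocyte markers (horizontal axes) in the 22 arrays; circles are females and squares males, open at time 0 and filled at 9 months. TLR8, TLR2, TLR4 and LY96 climb with the marker mean at 9 months (r 0.75 to 0.89), and TLR1 does not (r -0.47).

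Among themselves, TLR2 and TLR4 had the closest patterns over the 22 arrays after the condition means were subtracted (r = 0.86), followed by TLR4 with TLR8 and TLR2 with TLR8 (r = 0.78 each). LY96 correlated with TLR2, TLR4 and TLR8 at 0.762, 0.755 and 0.746. TLR1 stood alone, at -0.34 to -0.07 with the others. By the same measure, over 5901 other named genes, the nearest to TLR1 were MAP2K4 (r = 0.72), RGS2 (0.71) and its neighbour TLR6 (0.70). The nearest to TLR2 were CXCL16 (0.90), RAB10 (0.88) and GLRX (0.86), and to TLR4 ATP6AP2 (0.85), LAPTM4A (0.80) and RND2 (0.795). TLR8 was nearest to MAOA, GALM and PLBD1 (0.89 each), and LY96 to ANXA1 (0.93), MSRA (0.92) and PGK1 (0.91). These values describe the arrays, which share animals' cell mixture and sex, and carry no test.

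Of 74 other genes of Toll-like receptor signalling in 7 lists, 46 were on the array under 1 symbol and 42 were tested. None passed in any of the 3 diet comparisons (limma, 0 of 42 each). At an unadjusted p under 0.05 the count was 1 on high-fat, where 9.06% of all probe sets were. It was 1 for resveratrol against high-fat, where 6.63% were, and 0 for resveratrol against control, where 3.85% were. On high-fat, the gene with the smallest p was CD14, which hands lipopolysaccharide to TLR4 and LY96 (-0.76), which is also among the monocyte markers. The median difference on high-fat was -0.02 over the 42 genes, against -0.52 over the member probe sets. The lists lay on either side of 0: 2 other receptors (median -0.12), 5 accessory proteins (-0.20), 2 adaptors (-0.22), 10 kinases and ligases (-0.13), 5 transcription factors (-0.09), 5 inhibitors (-0.02) and 13 induced cytokines and enzymes (0.18). Of the 13 target genes 11 had positive differences on high-fat, where all 8 member probe sets had negative ones, with none past the threshold on either side. By sex, 12 of 13 targets were positive in males (median 0.47). In females, where diet coincided with spike-in set, 10 of 13 were negative (median -0.14), as all 8 members were. That difference between the sexes was not tested for the list. The smallest p in the other lists belonged to TLR9 (-0.26), MYD88 (-0.35), IRAK1 (-0.24), IRF3 (-0.19), TOLLIP (-0.27) and CXCL8 (0.36).

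With resveratrol against high-fat the medians of the lists were 0.01 for the other receptors, 0.275 for accessory proteins, 0.14 for adaptors, 0.09 for kinases and ligases, 0.07 for transcription factors, 0.08 for inhibitors and -0.05 for targets. The genes with the smallest p were TLR6 (-0.11), LY86 (0.30), MYD88 (0.30), IRAK1 (0.19), IRF3 (0.28), NFKBIA (-0.22) and PTGS2 (-0.62). None of these values passed the test.

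Over time on control, 7 of the 42 rose, where 15.8% of all probe sets did, and 3 fell, where 19.1% did. The count that rose is near the share of the whole array and the count that fell is under it. The kinase TBK1, which serves the interferon branch, rose by 0.76, the ligase TRAF6 by 0.43 and the kinase IRAK1 by 0.26, and the kinase MAP3K7 fell by 0.37. The transcription factor IRF8 rose by 0.77 and IRF3 fell by 0.58. The inhibitor of NF-kB NFKBIA rose by 0.50, and SIGIRR, an inhibitor of the receptors, fell by 0.42. UNC93B1, the chaperone that carries TLR8 and the other endosomal receptors to their compartment, rose by 0.26, as did the adaptor TICAM2 (0.31). None of the 13 targets and neither TLR6 (0.30, adjusted p = 0.0619) nor TLR9 passed. At 9 months IRF8 was the only 1 of the 42 to differ between the sexes, 0.44 higher in females (adjusted p = 0.0386), where 3.07% of all probe sets were higher, and 0 of 42 did so at time 0, where 12 had an unadjusted p under 0.05, against 16.4% of all. CD14 was -0.57 in females at 9 months (adjusted p = 0.126) and -0.51 at time 0 (adjusted p = 0.284).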

How the data were processed

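Blood mononuclear cells were isolated on a Histopaque gradient, and their RNA was labelled with biotin and hybridised to 1 array per sample, per the labels' protocols. The authors deposited linear RMA intensity values, made with GCOS and Affymetrix Expression Console 1.1 per the submitters' processing notes. Here log2 was taken of each deposited intensity after a floor of 1. Genes were named from the platform annotation given for the deposited table: 10069 of 23999 probe sets carry 1 symbol, 198 several and 13732 none.

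Tests used limma 3.58.1 in R 4.3.3, with 4 conditions and an additive sex term for diet and time, and with the 8 means of condition and sex for sex differences and for effects within 1 sex, over 17240 probe sets. Benjamini-Hochberg adjustment was over these, with a threshold of 0.05. Permutation tests drew 100000 orders. Fits were tested on simulated data. The numbers of arrays limit the precision. Replicates are different pigs. The pig numbers 8 and 25 recur because the labels give the same animal at both times. Deviations of pig 8 correlated at -0.0564 between the times and those of pig 25 at 0.199.

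Alternatives covered the filter, normalization, array weights, the sex term, the spike-in set, the pig as a block and each array left out. The members and the gene lists (7 of the pathway, 7 of cell types) were chosen with earlier results of these data known. Genes named within a list are those called or with the smallest p, and the genes nearest to a member are the 3 with the highest r. Comparisons of sex differences described as added were chosen after the values were seen.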

Additional observations from a re-analysis of the deposited data

Results flagged for a closer look

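Control female 18 at 9 months had a TLR8 value of 7.11, apart from the other 3 control arrays, which lay between 7.47 and 7.52. Control male 16 had an LY96 value of 10.30, apart from 10.44 to 10.47 in the other 3. These were 2 of 32 groups of arrays examined for a value set apart from the rest, where chance gives about 1 in 20.

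The female minus male difference of LY96 was 0.77 lower at 9 months than at time 0 (-0.77, limma, adjusted p = 0.00581). That of TLR8 was 1.01 lower (-1.01, adjusted p = 0.0455), a call kept in 9 of 29 alternatives. The comparison was added after the values were seen. By the same measure 3 of 14 monocyte markers and 1 of 6 granulocyte markers were lower and 3 of 10 T cell markers were higher. Over all probe sets 3.89% were lower and 3.45% higher. Of the 2 B cell markers 1 was higher and 1 lower, and no NK, platelet or erythroid marker passed. The part of these cells in the change of LY96 and TLR8 was not tested.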

How the results depend on the processing

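Of 955 alternatives over 50 results, 897 kept the direction and the side of the threshold, 27 lost a call, 5 gained one and 26 turned sign, all 26 among differences that had not passed; no cause was tested. Leaving out 1 array moved the members called from 2 to 4 over time, 1 to 4 between the sexes at 9 months, 1 to 2 for the change of the sex difference and 0 to 1 for that on resveratrol against control. The change of the sex difference had 1 call with no filter on low values, with array weights, with the spike-in set as a block and without set A. Leaving out 1 array gave TLR1 ranges of -0.28 to 0.075 on high-fat, -5.84e-05 to 0.29 for resveratrol against high-fat, -0.088 to 0.23 against control, -0.16 to 0.019 between the sexes at time 0 and -0.49 to 0.22 for the sex difference with resveratrol against control. For resveratrol against high-fat it gave TLR2 -0.026 to 0.31 and LY96 -0.24 to 0.14, for TLR4 between the sexes at time 0 -0.043 to 0.19, and for the sex difference in the resveratrol effect on TLR2 -0.31 to 0.24. TLR4 was -0.00897 for resveratrol against high-fat with the set as a block, TLR1 -0.00185 for resveratrol against control after another quantile normalization, and TLR4 -0.053 between the sexes at time 0 as the mean of its probe sets. With the pig as a replicate block the members called stayed 4 over time (TLR8 1.08, adjusted p = 0.00574), 3 between the sexes at 9 months and 2 for its change. Only pigs 8 and 25 recur, so the block could change little. Its fitted correlation was -0.176 in the diet and time fits and -0.018 in the sex fits. With the mean of the 3 diets in place of control, 3 of 8 members were called over time, where 8547 of all 17240 probe sets were. For the time comparison no fit with the set was made, since the sets were cut within each time. Each diet has 4 arrays, so the intervals are wide, and probe sets near or under the filter give little more than background.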
